A study of Homo sapiens with 9 samples.

Results

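Protein-coding genes whose listed start and end lie 500 kb or more apart were followed in PC3 xenografts after treatment with antibody-drug conjugates that deliver a topoisomerase I inhibitor. The 2 deposited count tables list 16204 genes, of which 257 met this span rule, 254 in one table, 252 in the other and 249 in both, with EGLN3 left out. These long genes span 500 to 2305 kb with a median of 706 kb, and 50 of them reach 1 Mb, whereas the 15946 shorter genes have a median span of 30.4 kb. PC3 is a human prostate cancer cell line, here grown in the flanks of male NSG mice, which lack functional T, B and natural killer cells. Mice were 11 weeks old at injection, and when tumors were 90 mm3 they received PBS as vehicle, P-DXd or T-DXd once a week, the conjugates at 5 mg/kg, for 5 cycles per the series record. P-DXd is patritumab deruxtecan, directed at HER3, and T-DXd is trastuzumab deruxtecan, directed at HER2. For its experiment with both conjugates at this dose, the paper's methods give another mouse age, starting volume and cycle number, and the record's values are those of a separate T-DXd experiment there. Each group has 3 libraries of polyadenylated RNA from tumors harvested at endpoint. Sample titles and treatment fields name opposite conjugates for the 6 treated libraries, so each treated group carries the name in its titles (P-DXd-titled or T-DXd-titled), and all treated against PBS is the comparison that does not depend on which label is right.

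Topoisomerase I nicks a single DNA strand and relieves the supercoils that build up around a moving RNA polymerase. Inhibitors of the camptothecin class trap the enzyme on DNA, which blocks replication forks and elongating polymerases. In neurons, lower topoisomerase I activity is known to reduce the transcripts of very long genes, many of which encode synaptic adhesion proteins and channels. The comparison asked whether long genes were lower in treated xenografts than shorter genes measured at similar counts.

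Long genes were not lower as a class. In all treated xenografts compared with PBS, 45 of 234 long genes tested were higher and 37 were lower, and 152 were not called. A gene was called at an adjusted p at or below 0.05 by edgeR's quasi-likelihood F test with a fold change of at least 1.5. Of all genes tested, 15.2% were called higher and 17.1% lower, against 19.2% and 15.8% of the long genes. The median log2 fold change was 0.06 over the long genes, with quartiles at -0.50 and 0.68, and -0.01 over the shorter genes, with quartiles at -0.44 and 0.41. Long genes are weakly expressed, with a median of 294 counts per library against 1799 for shorter genes, so each was also compared with shorter genes in the same of 10 bins of mean log2 CPM (counts scaled to library size). The median of this matched difference was 0.08 on the log2 scale, with 125 long genes above the median of their bin and 109 below it. Without PBS replicate 1 it was -0.0078. Weighted by the long genes in each bin, 17.6% of shorter genes were called higher and 20.5% lower.

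Long genes were not lower as a class in either conjugate group on its own, though both share the PBS libraries. The matched difference was larger in P-DXd-titled than in T-DXd-titled xenografts. In P-DXd-titled xenografts, 32 of 229 long genes tested were higher (14%) and 26 were lower (11.4%), where 11.2% and 13.8% of all genes tested were called higher and lower. The median log2 fold change was 0.12 over the long genes and -0.01 over the shorter genes, and the matched difference was 0.15, or 0.087 without PBS replicate 1. In T-DXd-titled xenografts, 34 of 230 long genes tested were higher (14.8%) and 36 were lower (15.7%). Of all genes tested, 13.1% and 15.5% were called higher and lower, and of shorter genes weighted over the count bins 15.0% and 16.9%. Here the median log2 fold change was -0.02 over both classes, and the matched difference was 0.02, or -0.084 without PBS replicate 1. No long gene was higher in one conjugate group and lower in the other, with 28 called higher and 24 called lower in both. With shared PBS libraries this is no separate result, and the share of all genes called in both is not given here. Leaving out 1 library changed the 3 against 3 counts by more than 1.5 times, with 15 to 40 higher and 9 to 30 lower in P-DXd-titled and 20 to 46 higher and 18 to 45 lower in T-DXd-titled xenografts. The first comparison gave 17 higher and 15 lower without PBS replicate 2, 12 lower without P-DXd-titled replicate 1, 18 and 17 without replicate 2, and 15 and 9 without replicate 3. The second gave 20 higher without T-DXd-titled replicate 1, 22 and 22 without replicate 2, and 18 lower without replicate 3.

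The change did not fall steadily with span. In P-DXd-titled xenografts the lowest class median was in genes of 30 to 100 kb, at -0.04, and genes of 500 to 1000 kb were at 0.08. In T-DXd-titled xenografts the lowest was in genes of 500 to 1000 kb, at -0.07, followed by genes of 30 to 100 kb at -0.06. In genes of 1 Mb or more the medians were 0.28 in P-DXd-titled xenografts over 42 genes tested and 0.19 in T-DXd-titled xenografts over 45. The quartiles of these longest genes were far apart, from -0.81 to 1.02 and from -0.67 to 1.02. In all treated xenografts 7 of 45 tested were lower (15.6%) and 11 higher (24.4%), against 17.1% and 15.2% of all genes tested. The 11 include CSMD1 and OPCML, which passed the filter on low counts only through the treated libraries. These longest genes were the most weakly expressed span class, with a median log2 CPM of 0.72. Across all genes tested, Spearman's rho between span and log2 fold change was -0.04 in all treated xenografts, and within the long genes it was 0.06. These are descriptions across genes, which share the same libraries.

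**Figure D1:**
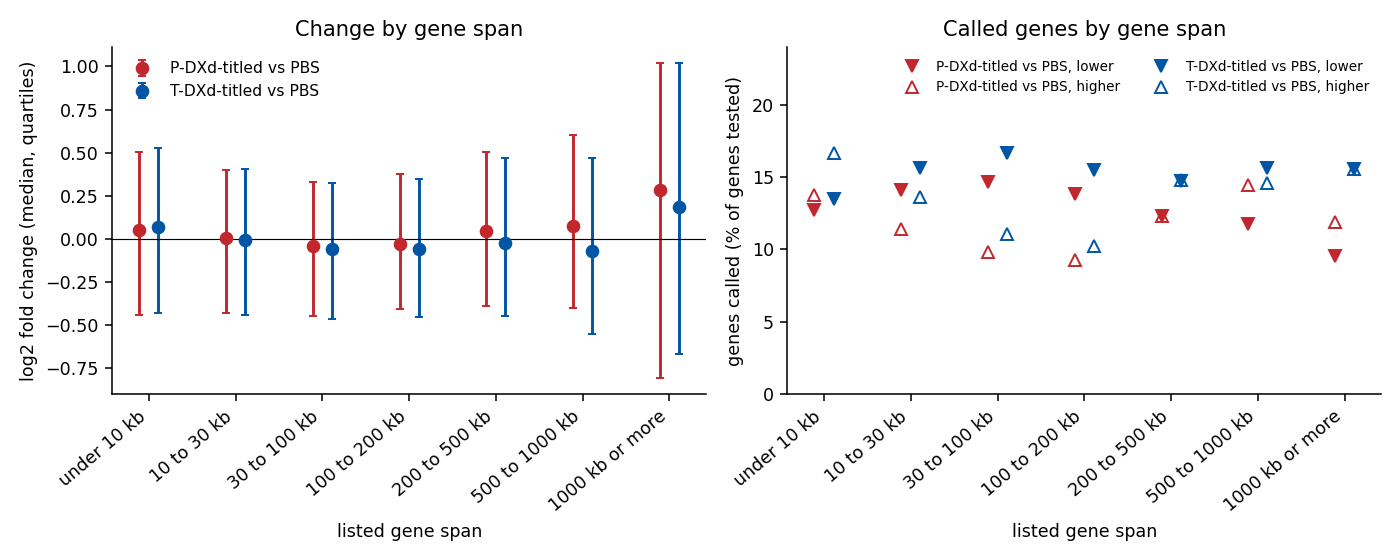
Median log2 fold change with quartiles (left) and percent of tested genes called (right, filled for lower and open for higher) by listed gene span, for P-DXd-titled (red) and T-DXd-titled (blue) against PBS. Class medians stay close to 0 up to 1000 kb, and in genes of 1000 kb or more they are 0.28 and 0.19 with wide quartiles.

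The same was seen library by library. For each library, log2 CPM over the PBS mean was taken for every long gene, the median of shorter genes in its count bin was subtracted, and the median over the long genes was used. This value was -0.15, 0.08 and 0.06 in PBS replicates 1 to 3. In the same order of replicates it was 0.15, 0.18 and 0.11 for P-DXd-titled and 0.08, 0.02 and -0.0028 for T-DXd-titled xenografts. P-DXd-titled libraries lay above all PBS libraries, T-DXd-titled libraries lay within the PBS range, and PBS replicate 1 was the lowest of the 9. For genes of 1 Mb or more, the 6 treated libraries, at 0.21 to 0.55, lay above the PBS libraries, at -0.13 to 0.09. Long genes held 0.396% to 0.484% of the counts in PBS, 0.453% to 0.469% in P-DXd-titled and 0.411% to 0.452% in T-DXd-titled libraries.

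**Figure D2:**
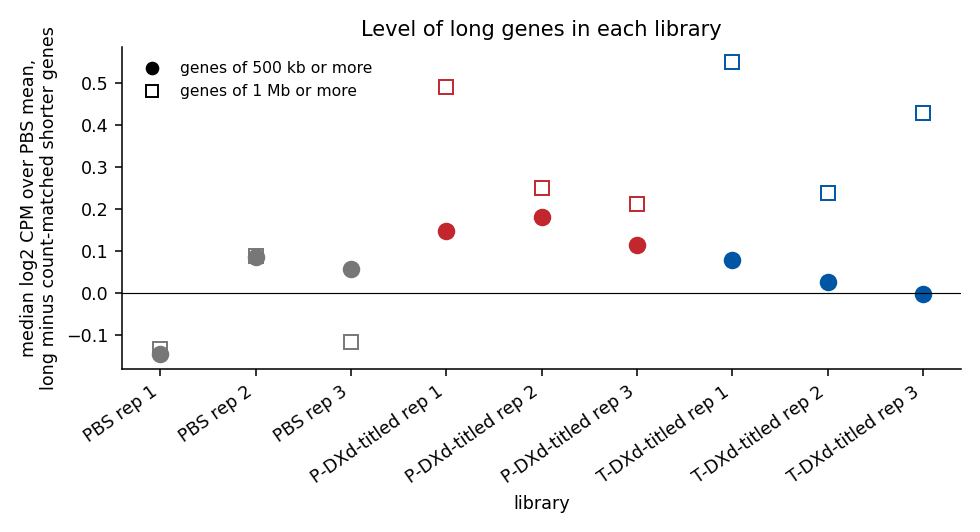
Level of long genes in each library, as the median log2 CPM over the PBS mean minus the same for count-matched shorter genes, for genes of 500 kb or more (filled) and of 1 Mb or more (open). PBS libraries range from -0.15 to 0.08 for genes of 500 kb or more and treated libraries from -0.0028 to 0.18.

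Among the 5 longest genes tested by listed span, 2 fell, 2 rose and 1 was not called. By GENCODE v44 spans, RBFOX1, which rose, would be the longest at 2473.54 kb (listed 1694.25 kb) and LSAMP would leave the 5. CNTNAP2, the longest at 2304.638 kb (chromosome 7, 145813453 to 148118090 as listed), encodes a neurexin-family adhesion protein that gathers potassium channels on axons. Its CPM was 15.1, 20.1 and 20.5 in PBS, 6.33, 6.39 and 4.85 in P-DXd-titled and 3.86, 5.27 and 5.28 in T-DXd-titled libraries. All treated libraries were below all PBS libraries, and the log2 fold change was -1.82 (SE 0.16, edgeR adjusted p = 1.1e-05). LSAMP, a membrane-anchored immunoglobulin-family adhesion protein, had 4.36, 2.28 and 0.869 CPM in PBS, 0.168, 0.702 and 0.397 in P-DXd-titled and 0.207, 0.46 and 0.0612 in T-DXd-titled libraries, a log2 fold change of -2.95 (SE 0.61, edgeR adjusted p = 0.0021). Its PBS libraries differed among themselves widely, yet none overlapped the treated ones.

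PTPRD and DMD were higher. PTPRD, a receptor tyrosine phosphatase of cell adhesion, had 1.82, 0.777 and 0.709 CPM in PBS, 3.19, 3.69 and 3.69 in P-DXd-titled and 4.37, 3.45 and 3.09 in T-DXd-titled libraries, with a log2 fold change of 1.68 (SE 0.31, edgeR adjusted p = 0.0011). DMD, which encodes dystrophin, the link between the cytoskeleton and the muscle cell membrane, had 2.78, 3.91 and 3.08 CPM in PBS, 7.42, 25.3 and 6.32 in P-DXd-titled and 9.4, 5.79 and 5.49 in T-DXd-titled libraries. Its log2 fold change was 1.59 (SE 0.49, edgeR adjusted p = 0.019), and without PBS replicate 3 the adjusted p was 0.0503. DLG2, a scaffold of postsynaptic membranes, was at 1.71 to 2.27 CPM in PBS and 2.07 to 3.39 in treated libraries, which overlap, with a log2 fold change of 0.40 (SE 0.19, edgeR adjusted p = 0.1).

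**Figure D3:**
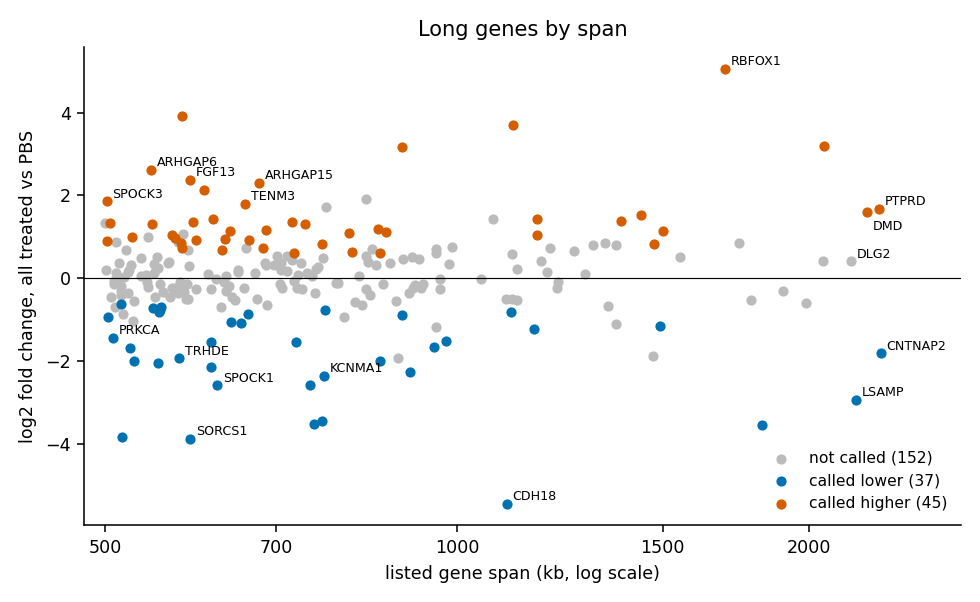
Log2 fold change of the 234 long genes tested, all treated against PBS, by listed span in kb on a log axis; orange points are the 45 called higher, blue the 37 called lower and grey the 152 not called. Rises and falls occur along the whole range of spans, and CNTNAP2, PTPRD, DMD, LSAMP and DLG2 are at its right end.

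The largest falls among well-counted long genes were in a channel, a secreted proteoglycan, a peptidase, adhesion proteins and receptors, and a kinase. KCNMA1 (chromosome 10, 78629359 to 79398353 as listed), the pore-forming subunit of the large-conductance calcium-activated potassium channel, had the highest PBS level of the 8. It had 90.9, 114 and 99.7 CPM in PBS, 17.1, 27.4 and 16.8 in P-DXd-titled and 17.6, 19.6 and 21.3 in T-DXd-titled libraries. The PBS libraries agreed closely and every treated library was far below the lowest of them, with a log2 fold change of -2.37 (SE 0.14, edgeR adjusted p = 3.2e-06). SPOCK1, a secreted proteoglycan of the testican family, had 32.1, 18.5 and 17.0 CPM in PBS, 3.68, 4.1 and 4.18 in P-DXd-titled and 2.64, 4.14 and 4.02 in T-DXd-titled libraries, a log2 fold change of -2.59 (SE 0.21, edgeR adjusted p = 6.8e-06). TRHDE, the ectoenzyme that degrades thyrotropin-releasing hormone, fell from 8.78 to 11.6 CPM in PBS to 2.08 to 3.66 in treated libraries, a log2 fold change of -1.94 (SE 0.18). PRKCA, protein kinase C alpha, had 37.3, 79.6 and 75 CPM in PBS and 21.7 to 28.1 in treated libraries, a log2 fold change of -1.44 (SE 0.19, edgeR adjusted p = 0.00012).

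CDH18 and SORCS1 fell furthest, from PBS levels that varied widely. CDH18, a type II cadherin, had 9.61, 2.8 and 0.488 CPM in PBS, 0.108, 0.277 and 0.0916 in P-DXd-titled and 0.0277, 0.0676 and 0.0459 in T-DXd-titled libraries. Its log2 fold change was -5.45 (SE 0.81, edgeR adjusted p = 0.00027) and ranged from -5.98 to -4.04 when 1 library was left out. SORCS1, a VPS10-domain sorting receptor, had 5.33, 4.52 and 1.07 CPM in PBS and 0.0599 to 0.383 in treated libraries, with a log2 fold change of -3.90 (SE 0.55). For both genes PBS replicate 1 was the highest library. It was the highest PBS library for 24 of the 37 long genes called lower and the lowest for 23 of the 45 called higher. The same counts over all genes are not given here. Over all genes PBS replicate 1 stood apart, with a chi-square per gene of 321 and 396 against the other PBS libraries, which gave 38 against each other.

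The largest rises among well-counted long genes began from low PBS levels. FGF13, an intracellular fibroblast growth factor homologue that binds sodium channels, had 2.02, 3.77 and 3.55 CPM in PBS, 15.6, 18.8 and 16.4 in P-DXd-titled and 14.8, 17.0 and 15.7 in T-DXd-titled libraries. Treated libraries were tightly grouped and all above PBS, with a log2 fold change of 2.37 (SE 0.19, edgeR adjusted p = 6.8e-06). ARHGAP6 and ARHGAP15 also rose. ARHGAP6 had 0.668, 0.637 and 0.417 CPM in PBS and 3.27 to 4.18 in treated libraries, a log2 fold change of 2.61 (SE 0.21), and it overlaps 1 other listed gene, so some reads may belong to that gene. ARHGAP15 had 0.545, 0.334 and 0.505 CPM in PBS and 1.89 to 3.18 in treated libraries, a log2 fold change of 2.31 (SE 0.26).

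SPOCK3, a relative of SPOCK1, and TENM3, a teneurin that joins cells across synapses, also rose. SPOCK3 had 0.886 to 1.82 CPM in PBS and 4.39 to 6.99 in treated libraries, with a log2 fold change of 1.85 (SE 0.25, edgeR adjusted p = 0.00017), the opposite direction to SPOCK1. TENM3 had 0.594 to 1.7 CPM in PBS and 3.01 to 6.2 in treated libraries, with a log2 fold change of 1.79 (SE 0.35, edgeR adjusted p = 0.0016). Its relative TENM2, named here after its values were seen, was lower, at 35.6, 79.0 and 99.4 CPM in PBS and 19.9 to 36.8 in treated libraries, which overlap.

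**Figure D4:**
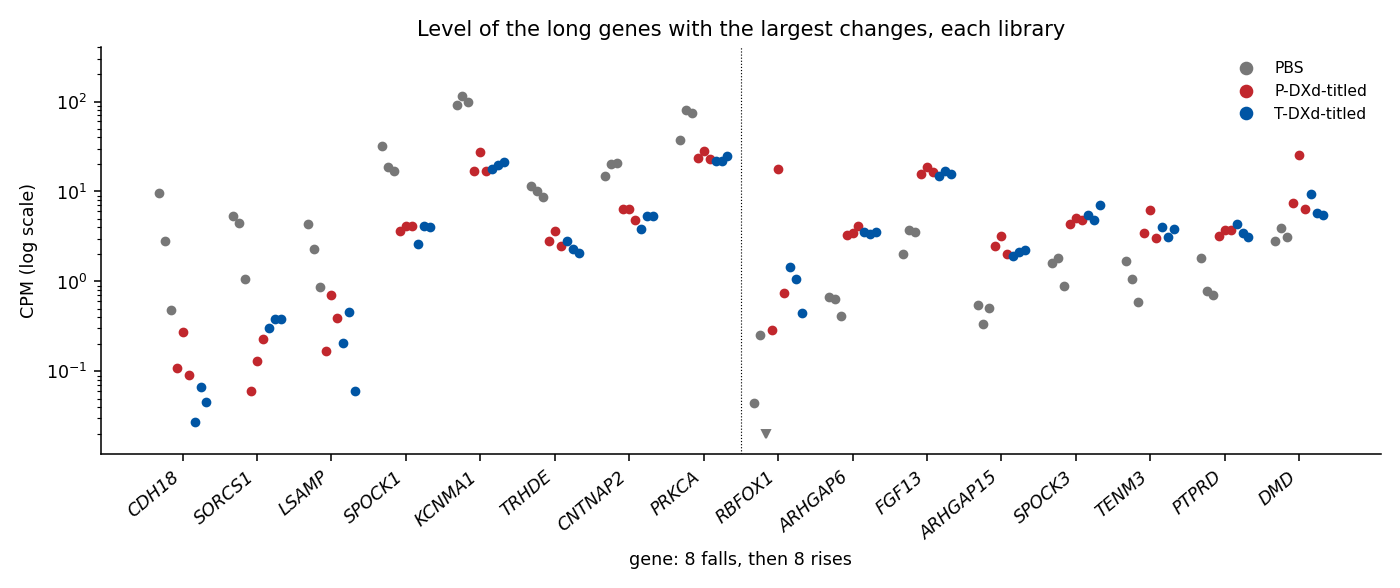
CPM on a log axis in each library for the 8 largest falls (left of the dotted line) and 8 largest rises among long genes averaging 100 counts or more, PBS in grey, P-DXd-titled in red and T-DXd-titled in blue; the triangle marks RBFOX1 in the PBS library where it is at 0. PBS and treated libraries do not overlap for any of the 16, as the rule for choosing them required, and RBFOX1 and DMD are highest in P-DXd-titled replicate 2.

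RBFOX1, SGCD and DMD, long genes expressed in muscle, were each highest in the library with the most muscle marker RNA. RBFOX1, a splicing regulator of neurons and muscle, had 0.0445, 0.256 and 0 CPM in PBS, 0.288, 17.7 and 0.748 in P-DXd-titled and 1.45, 1.07 and 0.444 in T-DXd-titled libraries. Its log2 fold change of 5.05 (SE 1.72, edgeR adjusted p = 0.028) was 2.90 without P-DXd-titled replicate 2. RBFOX1 was not called without PBS replicate 3 (edgeR adjusted p = 0.072), and DESeq2 gave it no adjusted p. In P-DXd-titled against PBS the call was lost without P-DXd-titled replicate 2 (edgeR adjusted p = 0.229), among other libraries. In T-DXd-titled against PBS it was lost without any 1 T-DXd-titled library. SGCD, delta-sarcoglycan of the dystrophin complex, had 0.0532 to 0.323 CPM in PBS, 0.827, 5.85 and 0.793 in P-DXd-titled and 1.24, 1.54 and 1.55 in T-DXd-titled libraries, a log2 fold change of 3.16 (SE 0.81, edgeR adjusted p = 0.0072). The summed level of 14 skeletal muscle markers was 10.7 to 68.8 CPM in PBS, 93.2 in P-DXd-titled replicate 1, 4919 in replicate 2 and 306 in replicate 3, and 242 to 303 in T-DXd-titled libraries, and 13 of the 14 were called higher. Between P-DXd-titled replicates 1 and 3, where the marker sum was 93.2 and 306, RBFOX1 was at 0.288 and 0.748 CPM. DMD was at 7.42 and 6.32 there, and SGCD at 0.827 and 0.793. Each gene, like the marker sum, was lower in every PBS library than in any treated library. Of the 45 long genes called higher, 19 had their highest treated level in P-DXd-titled replicate 2, FGF13, ARHGAP15 and TENM3 among them. The share over all genes called higher is not given here, so this count is not read as a trait of long genes. The part of muscle RNA in these rises was not tested, and the tables do not say whether mouse reads were removed. In bulk tumor RNA, fewer cells of a type and less RNA per cell cannot be told apart.

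**Figure D5:**
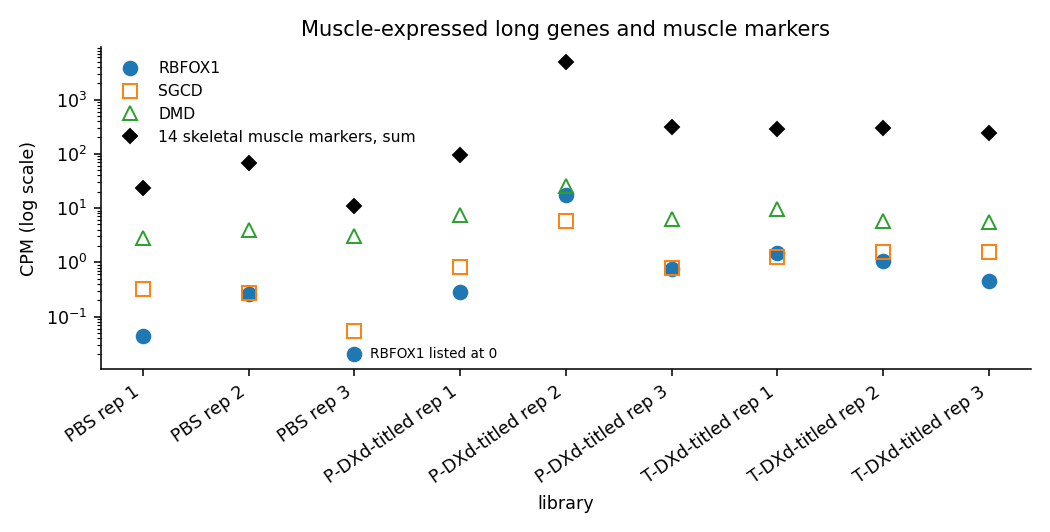
CPM on a log axis in each library for RBFOX1, SGCD, DMD and the sum of 14 skeletal muscle markers. All 4 are highest in P-DXd-titled replicate 2, where the marker sum is 4919 CPM.

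Other marker lists, of host cell types and of epithelium, also held genes called higher. The summed level of 7 macrophage markers was 5.84 to 6.94 CPM in PBS, 18.3 to 25.3 in P-DXd-titled and 27.5 to 36.9 in T-DXd-titled libraries, with 4 of 6 tested called higher. Of 12 fibroblast markers tested, 7 were called higher, with sums of 1202 to 2131 CPM in PBS and 1353 to 2395 in treated libraries. Of 6 endothelial markers 1 was called higher, and of 8 neuron and Schwann cell markers 4, a list that holds the long genes RBFOX3 and SYT1. Of 6 markers in the epithelial list, which also holds VIM, 2 were called higher. Of all genes tested, 15.2% were called higher. No marker list had a gene called lower. Their part in the changes of long genes was not tested.

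By function, 5 of 11 lists of long genes had calls in both directions and 6 in a single direction. Their counts are to be read against the 15.2% of all genes tested that were called higher and the 17.1% called lower, and in lists this short 1 gene moves the share by much. Of 23 genes tested that lie at common fragile sites, regions where chromosomes break under replication stress, 8 were higher, 3 were lower and 12 were not called, with a median log2 fold change of 0.40. CNTNAP2 and LSAMP were among the 3 lower and PTPRD and DMD among the 8 higher. FHIT and WWOX, the best known of these genes and named here after their values were seen, went opposite ways. FHIT, a diadenosine triphosphate hydrolase, had 0.289, 0.505 and 0.647 CPM in PBS and 0.78 to 1.29 in treated libraries, with a log2 fold change of 1.13 (SE 0.30, edgeR adjusted p = 0.00899). WWOX, a WW-domain oxidoreductase, had 13, 10.2 and 9.64 CPM in PBS and 5.75 to 7.21 in treated libraries, with a log2 fold change of -0.82 (SE 0.13, edgeR adjusted p = 0.000421). The 8 higher include CSMD1, a large complement-control protein, which had 6, 2 and 1 counts in PBS and 5 to 34 in treated libraries and passed the filter on low counts only through the treated libraries.

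Of 8 cadherins, catenins and protocadherins tested, 1 was higher and 2 were lower, with a median of -0.38. CDH13, the cadherin without a transmembrane segment, rose from 0.878 to 1.56 CPM in PBS to 2.24 to 2.99 in treated libraries, with a log2 fold change of 1.03 (SE 0.22), in contrast to CDH18. Of 25 immunoglobulin-family and synaptic adhesion genes tested, 5 were higher and 4 lower, with a median of 0.34. OPCML, an adhesion protein related to LSAMP, had 3 counts in PBS, all in replicate 2, and 55 over the treated libraries. Scaled to total counts the ratio was 14.4, with an exact 95% interval of 4.66 to 71.8 that covers counting error only, and the gene passed the filter only through the treated libraries. Of 5 receptor tyrosine phosphatases tested, PTPRD was higher and the other 4 were not called. Of 9 ion channels and glutamate receptors, 3 were lower and none was higher, with a median of -0.12. Beside KCNMA1 these included GRID1, a delta-type glutamate receptor, which fell from 0.541 to 3.27 CPM in PBS to 0.0839 to 0.336 in treated libraries, a log2 fold change of -3.46 (SE 0.54).

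Of 9 cyclic nucleotide and lipid signaling enzymes tested, 2 were higher and none was lower, with a median of 0.50. PDE1C, a calmodulin-dependent phosphodiesterase that breaks down cyclic nucleotides, had 21.2, 29.6 and 32.9 CPM in PBS, 65.9, 73.6 and 72.4 in P-DXd-titled and 74.9, 70.9 and 63.7 in T-DXd-titled libraries. Its log2 fold change was 1.31 (SE 0.12, edgeR adjusted p = 1.8e-05), and treated libraries were all above PBS. Of 27 small GTPase regulators, polarity and scaffold genes, 6 were higher and 1 was lower, NAV2, a neuron navigator protein, at 31.2 to 55.5 CPM in PBS and 21.5 to 33.4 in treated libraries, which overlap. Of 11 kinases and receptor tyrosine kinases, 3 were lower and none higher. Beside PRKCA these included ALK, a receptor tyrosine kinase, at 0.0668, 0.567 and 0.629 CPM in PBS and 0.107 to 0.216 in treated libraries. Its call (log2 fold change -1.55, SE 0.54, edgeR adjusted p = 0.031) was lost without PBS replicate 2 (adjusted p = 0.123) or replicate 3 (0.14), and without any 1 of 4 of the treated libraries.

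Of 18 transcription and chromatin regulators tested, 5 were higher and 1 was lower, with a median of 0.17. FOXP2, a forkhead transcription factor, had 0.062 to 0.334 CPM in PBS and 0.203 to 1.41 in treated libraries, with a log2 fold change of 2.12 (SE 0.62, edgeR adjusted p = 0.014). ZNF385D, a zinc finger protein, was lower, but its PBS libraries ran from 0.168 to 4.45 CPM. Its log2 fold change moved from -1.66 to -0.65 without PBS replicate 1. The call was lost without that library (edgeR adjusted p = 0.363), without PBS replicate 2 (0.0756) or without any 1 treated library (0.0617 to 0.074). It was kept without PBS replicate 3 and lost with a block on the first digit of the title code (0.197). Of 5 genes of the dystrophin complex, glypicans and heparan sulfate enzymes, DMD and SGCD were higher, and of 3 RNA-binding proteins only RBFOX1 was called. The lists hold 138 of the 257 long genes, and some genes stand in more than 1 list.

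The targeted enzyme and the elongation machinery were read from lists of their own, which hold no long gene. TOP1 had 301, 243 and 230 CPM in PBS, 213, 190 and 205 in P-DXd-titled and 212, 207 and 200 in T-DXd-titled libraries. All treated libraries were below PBS, but the log2 fold change of -0.36 (SE 0.09, edgeR adjusted p = 0.0058) was under the fold minimum. Of the 8 topoisomerases and tyrosyl-DNA phosphodiesterases, 4 were lower and none higher, where 17.1% of all genes tested were lower and 15.2% higher. TOP2A, the topoisomerase II of dividing cells, fell from 139 to 231 CPM in PBS to 15.4 to 33.5 in treated libraries, a log2 fold change of -2.84 (SE 0.23), and TOP1MT, the mitochondrial form, fell by 0.80 on the log2 scale (SE 0.09). Of 42 elongation factors, 4 were lower and none higher, a smaller share in each direction than the 17.1% and 15.2% of all genes tested. POLR2A, the largest subunit of RNA polymerase II, had 117 to 179 CPM in PBS and 72.7 to 88.0 in treated libraries, a log2 fold change of -0.84 (SE 0.13). Genes of S phase and G2/M phase were lower far more often, 38 of 41 and 49 of 55. No long gene tested was among them, so leaving them out removed only a few of the shorter genes. This could hardly move the medians of the bins, and the matched difference in all treated xenografts was 0.074 against 0.077. Their part in the comparison of long and shorter genes was not tested.

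The conjugate groups were also compared directly. No long gene was called among 221 tested by edgeR, with 24 at an unadjusted p below 0.05, and 0.0273% of all genes tested were called. The share of all genes below that unadjusted p is not given here. DESeq2 called 1 long gene, ESRRG, an orphan nuclear receptor named here after its values were seen, at 2.89, 4.5 and 2.44 CPM in P-DXd-titled and 1.33, 1.11 and 1.77 in T-DXd-titled libraries. Its edgeR log2 fold change was 1.22 (SE 0.29, adjusted p = 0.809). As a class the long genes leaned toward P-DXd-titled xenografts by a small amount. The median log2 fold change was 0.10 over the long genes and 0.00 over shorter genes, the matched difference was 0.10 and ranged from 0.08 to 0.14 when 1 library was left out, and 166 of 221 long genes were above the median of their bin. In genes of 1 Mb or more the matched difference was 0.21. Class medians rose with span among shorter genes too, from -0.02 under 10 kb to 0.03 at 200 to 500 kb. They were 0.09 at 500 to 1000 kb and 0.20 at 1000 kb or more. Spearman's rho between span and log2 fold change was 0.14 over all genes tested and 0.22 within the long genes.

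Long genes differ from shorter ones in more than span. By GENCODE v44, their canonical transcripts have a median of 6.84 kb and 18 exons against 3.16 kb and 9 exons, so that the transcript makes up 0.848% of the span against 10.3%. They are spread over 22 chromosomes, with 32 on chromosome 3 and 22 each on chromosomes 1 and 7, and none on chromosome 19, which holds 1132 listed genes. Long genes that overlap another listed gene number 55, and EIF2B5, listed at 549.721 kb, overlaps 14, so its span and counts are uncertain. Of the long genes, 248 also reach 500 kb in GENCODE v44. The members nearest the rule's limit were AFF2, at 500055 bases with a log2 fold change of 1.34, and KCNAB1, at 501056 with 0.20. Just below it were DIAPH3, at 498405 with -1.87, and CACNA2D1, at 497355 with 0.54.

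RefSeq holds a window of 250 bases before to 50 bases after the start for 219 of the 257 long genes, and the most upstream window of each gene was read. The median number of CpG dinucleotides was 14 in 40 long genes called higher, 23 in 32 called lower and 27.5 in 126 not called. Among shorter genes the medians were 21, 25 and 26, although only 77.8% of shorter genes have a window. No test was made of these medians, and single genes varied widely, from 5 to 54 CpG among the largest falls with a window and from 4 to 40 among the largest rises. The 250 bases upstream of the start on GRCh38.p14 follow for PRKCA, which fell, and ARHGAP6, which rose, each the best counted of the named falls or rises with a single RefSeq start, and PRKCA is far above the median of the falls. They are written 5′ to 3′ on the gene's strand, with each CG in capitals, from chr17:66302363-66302612 on the plus strand for PRKCA and chrX:11665921-11666170 on the minus strand for ARHGAP6.
PRKCA: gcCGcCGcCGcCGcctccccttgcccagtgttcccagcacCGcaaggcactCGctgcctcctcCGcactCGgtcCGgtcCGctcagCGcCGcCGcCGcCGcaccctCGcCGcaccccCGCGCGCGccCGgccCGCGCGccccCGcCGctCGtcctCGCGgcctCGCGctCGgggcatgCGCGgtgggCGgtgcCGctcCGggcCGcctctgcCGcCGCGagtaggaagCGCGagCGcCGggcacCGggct
ARHGAP6: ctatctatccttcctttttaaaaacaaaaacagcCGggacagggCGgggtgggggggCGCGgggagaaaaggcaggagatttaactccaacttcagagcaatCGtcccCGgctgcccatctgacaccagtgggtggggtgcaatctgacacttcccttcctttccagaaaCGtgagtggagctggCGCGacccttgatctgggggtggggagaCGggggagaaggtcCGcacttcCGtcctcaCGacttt
Over these 250 bases PRKCA holds 47 CpG and ARHGAP6 13, against a median of 11 over the same part of all 35116 windows, of which 0.33% hold at least 47 and 46.6% at least 13. Those windows cover all starts of 27305 RefSeq genes, a different set from the listed genes with 1 window each. Over the longer window used for the medians above, PRKCA holds 52 CpG and ARHGAP6 17. The letters TATAAA were searched on both strands and are in neither window, and 10.7% of all windows hold them. Which start is used in these xenografts was not analysed here.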

How the data were processed

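RNA-Seq of tumors was carried out by the authors on TruSeq mRNA libraries. Per the labels and methods, the authors used cutadapt for trimming, STAR for alignment and featureCounts for counting, and the values deposited are raw counts. The sources used here do not state whether mouse reads were removed or strand was used. Totals ran from 90761763 to 125538606 counts per library for PBS, 54481702 to 83721486 for P-DXd-titled and 66954114 to 73655752 for T-DXd-titled libraries. Per-sample columns not used numbered 0. No pair of replicates agreed within sampling noise, with a chi-square per gene of 17.8 to 396, so the spread between libraries exceeded counting error. Titles hold 9 different codes that the records do not explain, and where replicates are not separate animals p-values measure only the spread between these samples. The methods name GRCh38.p13 and GENCODE v38, but only 44 of 15869 gene identifiers found in GENCODE v44 have the listed coordinates there. PRKCA is listed from 64298754 on chromosome 17, where its upstream window on GRCh38.p14 ends at 66302612. The listed coordinates thus differ from GRCh38, and the build that they follow was not identified here.

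Long genes were listed with end minus start plus 1 of at least 500000 bases. Members, gene lists and tests were chosen with earlier results of these data known. Tests used edgeR 4.0.16 in R 4.3.3 over all genes, with TMM scaling, filterByExpr, the two-sided quasi-likelihood F test and Benjamini-Hochberg adjustment, on 6 libraries for 3 against 3 and on 9 for all treated against PBS. Log2 CPM used a prior count of 2. Named genes were the 8 largest falls and 8 largest rises among called long genes that average 100 counts or more and whose PBS and treated libraries do not overlap, the 5 longest tested, the called gene with the largest fall and rise in each function list, any gene called between conjugates, TOP1, and the 2 largest changes in each of the topoisomerase and elongation lists, 1 of which is not reported here. Alternatives were DESeq2 1.42.0, RLE scaling, other filters, no fold minimum, a block on the first digit of the title code, 9 libraries in 1 fit, leaving out each library, spans of 300 kb or 1 Mb, other comparison genes and other matching, with GENCODE v44 spans added after seeing the data. The call rule and the matched difference were tested on simulated counts, with the same dispersion (spread beyond counting error) for all genes and no shift of long genes between replicates. That setting does not cover the differences seen among the PBS libraries.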

Additional observations from a re-analysis of the deposited data

How the results depend on the processing

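The settings were compared by the number of long genes called and by the matched difference, which was taken as moved when it shifted by more than 0.08, the pooled SD of the library values. Spans of at least 300 kb and of at least 1 Mb change how many genes are counted. In P-DXd-titled against PBS they gave 85 and 5 higher and 76 and 4 lower, of 620 and 42 tested. In T-DXd-titled against PBS they gave 103 and 7 higher and 93 and 7 lower, of 622 and 45. In all treated against PBS they gave 131 and 11 higher and 107 and 7 lower, of 632 and 45. With spans of at least 1 Mb the matched difference was 0.31 in P-DXd-titled, 0.20 in T-DXd-titled and 0.38 in all treated against PBS, and 0.21 between the conjugate groups. With bins set by the PBS level, it was -0.020 in all treated, -0.046 in T-DXd-titled and 0.078 in P-DXd-titled against PBS, and with no count matching it was -0.0047 in T-DXd-titled against PBS. The cause was not tested. DESeq2 called 1 long gene higher in P-DXd-titled than in T-DXd-titled xenografts, where edgeR called 0.

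When 1 library was left out, P-DXd-titled against PBS gave 15 to 40 higher, 9 to 30 lower and a matched difference of 0.09 to 0.20. T-DXd-titled against PBS gave 20 to 46 higher, 18 to 45 lower and -0.084 to 0.079. All treated against PBS gave 43 to 52 higher, 32 to 46 lower and -0.0078 to 0.12, and the conjugate groups against each other gave 0 calls and 0.08 to 0.14. The lowest matched differences of the first 3 were without PBS replicate 1, and without P-DXd-titled replicate 2, the library rich in muscle markers, P-DXd-titled against PBS gave 18 higher, 17 lower and 0.12. No paired analysis was possible because the titles hold codes that the records do not explain and no shared replicate numbers. A block on the first digit of the code gave 29, 31 and 45 higher and 26, 24 and 32 lower in the 3 comparisons with PBS. Of 373 repeats over 27 named long genes in all treated against PBS, 355 kept the call or its absence, 18 lost it and 0 changed sign, and 23 of the genes kept it throughout. The 4 that did not were RBFOX1, DMD, ZNF385D and ALK. Long genes with few counts limit these results, since 81 of 249 were under 1 CPM in PBS.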
